A study of Homo sapiens with 4 samples.

Results

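The genes described here are 9 replacement histone variants and SLBP, 10 genes picked by symbol (H2AFZ, H2AFX, H2AFY, H2AFV, H2AFJ, H3F3A, H3F3B, H1F0, H1FX and SLBP, in the older histone nomenclature that the tables use) out of 23605 symbols. All 10 were listed in the 4 libraries, and all 10 reached the minimum for testing, an average of at least 1 FPKM. RNA was sequenced from LCC9 cells, a breast cancer line that the labels give as tamoxifen resistant and positive for wild-type estrogen receptor alpha. Both groups were grown without phenol red in medium with 5% charcoal-stripped serum, which is poor in estrogen. Vehicle (DMSO) was given to 2 samples and A7, a compound the labels name as a mimetic of the tumour suppressor BRCA1, to 2 samples, each for 24 h. The labels state no dose, and the catalogue number of A7 in the sample titles is not that in the title of the series. Only this 1 cell line was used, and nothing in the labels says that samples of a group were separate cultures, so the p-values below may reflect technical spread alone.

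Most histones are made in S phase from genes without introns, whose mRNAs end in a conserved stem-loop instead of a poly(A) tail. SLBP, the stem-loop binding protein, binds that structure and is needed for the processing, export and translation of these mRNAs. Replacement variants are made throughout the cell cycle, mostly from polyadenylated mRNAs, and are exchanged into chromatin outside replication: H2A.Z and H3.3 at promoters and enhancers, H2A.X as the variant that is phosphorylated around DNA breaks, macroH2A in silenced chromatin, and H1.0 and H1.10 as linker histones.

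Values are FPKM, fragment numbers corrected for transcript length and library depth, here divided by a factor per library (0.990 to 1.02) and called scaled FPKM. Summed FPKM was 1324082 and 1473540 with vehicle, against 1189056 and 1192830 with A7. The steps of low values put the depth of the vehicle libraries at about 2500000 and 2300000 fragments and that of the A7 libraries at about 4400000 and 3400000, which limits genes of low level. All 9 luminal epithelial markers had a mean of 1 or more, and 2 of 3 basal markers were at 0 in all 4 libraries. The summed level of the luminal list was 76880 to 80844 with vehicle and 35851 to 36328 with A7, most of it from TFF1. The summed level of the 5 fibroblast markers was 0.416 to 0.421 with vehicle and 0.963 to 11.0 with A7, with the proteoglycan gene DCN at 8.40 in A7 replicate 1 and at 0 in both vehicle libraries. The summed leukocyte list lay between 4.56 and 5.23 in all libraries, with PTPRC and CD3E at 0. The part of these markers in the results was not tested.

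The 10 genes spanned 3 orders of magnitude in level per length. H2AFZ was the highest, with 3218 to 4445 scaled FPKM over the 4 libraries, followed by H3F3B with 1069 to 1333. Next came H2AFY, with 176.6 to 240.3, and H3F3A, with 42.5 to 178.7, and the ranges of these neighbours overlapped. H2AFV, with 18.9 to 25.9, lay apart from both sides. H1F0, H2AFX, SLBP and H2AFJ followed with means of 11.7, 8.81, 7.82 and 6.80, and each of their ranges overlapped that of its neighbour. H1FX was the lowest, with a mean of 1.64, and its highest library (2.64) lay below the lowest of H2AFJ (4.36).

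**Figure D1:**
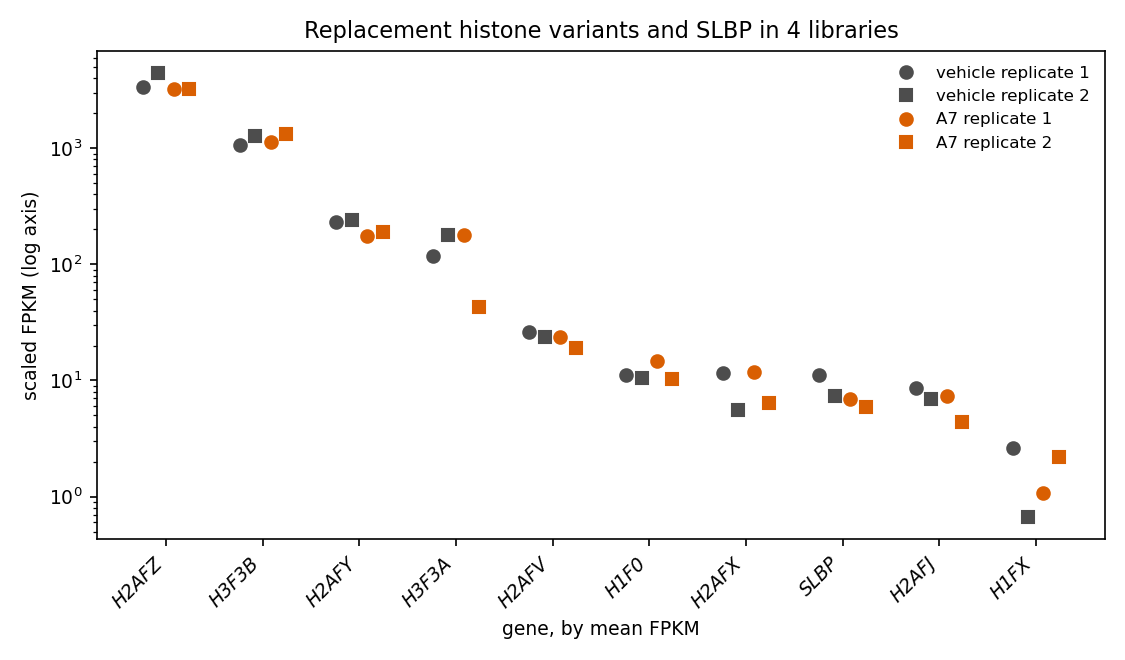
Scaled FPKM on a log axis for each of the 10 genes, ordered by mean, with 1 symbol per library (grey for vehicle, orange for A7, circles for replicate 1 and squares for replicate 2). H2AFZ lies between 3218 and 4445 and H1FX between 0.667 and 2.64, and in H3F3A the A7 replicate 2 library stands at 42.5, apart from the other libraries.

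Across the comparison of A7 with vehicle, H2AFY, H2AFZ and SLBP were lower in both A7 libraries than in either vehicle library. None of the 10 genes passed the limma test over all genes at an adjusted p under 0.05, where 2 of 8952 tested genes did (0.0223%), and 1 of the 10, H2AFY, had an unadjusted p under 0.05, against 5.76% of all genes tested. Groups did not overlap in 3 of the 10 on the lower side, where 18.6% of all genes did, and in 0 of the 10 on the higher side, where 18.3% did. Mean log2 values were lower with A7 in 6 of the 10, where 50.3% of all genes were lower. The median log2 difference of the 10 was -0.23, and that of all genes tested was -0.002. The median of the 10 was -0.051 without A7 replicate 2, -0.155 without vehicle replicate 1 and -0.356 without vehicle replicate 2, and it was -0.126 after quantile normalization and -0.094 with the H3.3 genes summed with their copies. Rescaling to TPM moved the median of all genes to 0.17 and that of the 10 to -0.014. Relative to that shift of all genes H3F3A stood at -0.67, SLBP at -0.41, H2AFJ at -0.35, H2AFY at -0.32, H2AFZ at -0.21, H2AFV at -0.17 and H1FX at -0.02. On the other side stood H2AFX at 0.12, H3F3B at 0.13 and H1F0 at 0.185. In bulk RNA, less mRNA per cell and fewer cells with the mRNA cannot be told apart. With TPM 1 of the 10, H2AFY, was without overlap on the lower side, where 5.36% of all genes tested were, and 2 of the 10, H3F3B and H1F0, on the higher side, where 40.7% were.

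**Figure D2:**
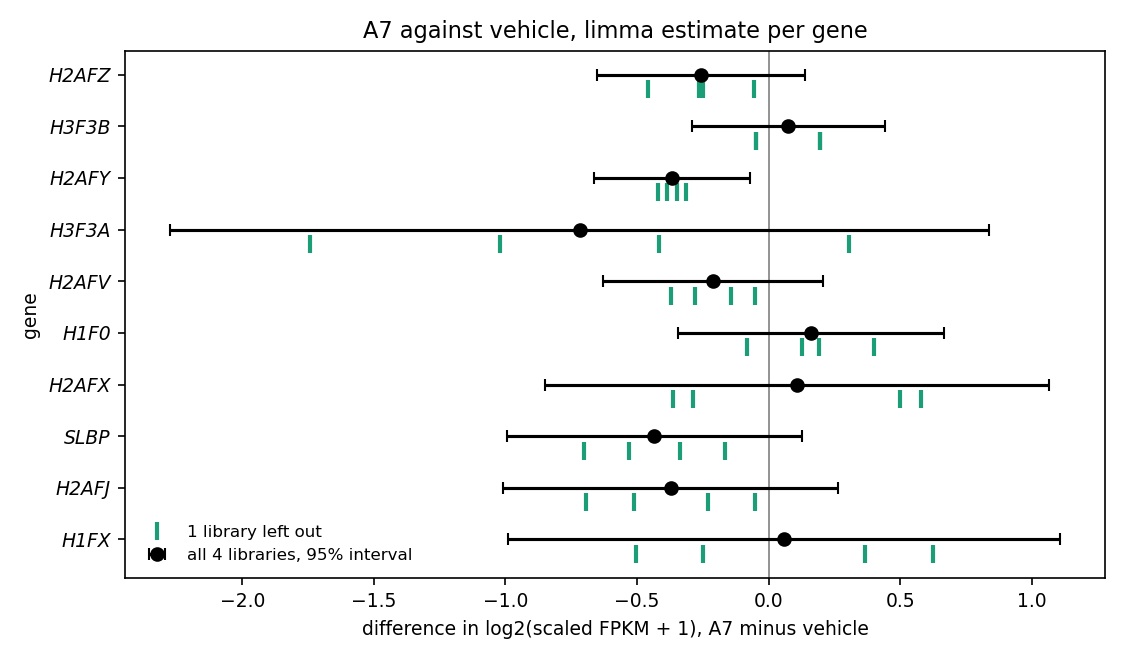
Difference in log2(scaled FPKM + 1), A7 minus vehicle, for each gene, with the limma estimate and 95% interval from all 4 libraries (black) and the estimates with 1 library left out (green ticks). The interval of H2AFY, from -0.66 to -0.07 before adjustment, lies below 0, and the ticks of H2AFX, H3F3A, H3F3B, H1F0 and H1FX fall on both sides of 0.

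H2A.Z is encoded by H2AFZ and H2AFV, whose proteins are almost the same. Their coding sequences, each of 387 bases with the stop codon, shared 80.4% of bases in an alignment of the GENCODE 29 transcripts, with 76 differences. GENCODE 29 also holds 2 near-identical pseudogenes of H2AFZ and 1 of H2AFV, not analysed here. H2AFZ, the abundant gene of the pair, was at 3359 and 4445 scaled FPKM with vehicle, against 3218 and 3252 after A7. Only vehicle replicate 2 stood high, whereas vehicle replicate 1 lay close above both A7 libraries. The means were 3902 ± 768 and 3235 ± 24 (SD, n = 2 each), which is 1.21-fold lower with A7, with a log2 difference of -0.26 (SE 0.16, 95% interval -0.65 to 0.14, limma adjusted p = 0.806). Without vehicle replicate 2 the log2 difference was -0.054, so the difference rests mainly on that library. It was -0.084 after quantile normalization and -0.032 with FPKM rescaled to TPM, and under both the groups overlapped. H2AFV was at 25.9 and 23.5 with vehicle, against 23.8 and 18.9 after A7. A7 replicate 2 was low and the groups overlapped, with a log2 difference of -0.21 (SE 0.17, limma adjusted p = 0.845), which was -0.052 without A7 replicate 2 and turned to 0.004 with FPKM rescaled to TPM. H2AFZ exceeded H2AFV by a ratio of 129.5 to 189.2 in the 4 libraries, and these ratios overlapped between the groups.

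The H2AFZ promoter is shown because H2AFZ is the most abundant of these genes and its promoter held 3 copies of an element common in histone promoters. It spans chr4:99950226-99950525 on GRCh38.p14, minus strand, from 250 bases before to 50 bases after the start of the gene, as given by RefSeq, with the CCAAT element, on either strand, in capitals.
H2AFZ: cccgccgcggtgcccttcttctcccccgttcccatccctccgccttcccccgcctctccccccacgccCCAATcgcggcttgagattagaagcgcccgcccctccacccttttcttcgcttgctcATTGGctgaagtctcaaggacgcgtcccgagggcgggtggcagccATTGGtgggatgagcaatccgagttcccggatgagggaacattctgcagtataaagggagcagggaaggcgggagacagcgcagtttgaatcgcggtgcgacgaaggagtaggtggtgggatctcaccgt
It held 3 matches of CCAAT, 1 on the strand of the gene and 2 on the other. RefSeq promoters were matched for 9 of the 10 genes, all but H1F0, and 9 of their 13 promoters (69.2%) held CCAAT, where 34.6% of all 35116 promoters in the table did. H3F3A alone gave 4 of the 13 promoters, and the promoters of H1FX and SLBP held no match. The full estrogen response element, an inverted pair of GGTCA half-sites 3 bases apart that reads the same on both strands, was in none of these promoters and in 0.057% of all, and TTTCGCGC or TTTGGCGC, letters of the E2F site, on either strand, in none and in 1.15% of all. The absence of these letters concerns this window only.

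H2AFX, which encodes the damage-marking variant H2A.X, separated by replicate number and not by treatment. It was at 11.5 and 5.51 scaled FPKM with vehicle, against 11.8 and 6.40 after A7. Both libraries numbered 1 were high and both numbered 2 were low, and the groups overlapped. The log2 difference was 0.11 (SE 0.39, 95% interval -0.85 to 1.06, limma adjusted p = 0.969), and it turned negative without vehicle replicate 2 (-0.36) or without A7 replicate 1 (-0.29). The estimated fragments were 47, 20, 83 and 35 in the order vehicle 1, vehicle 2, A7 1 and A7 2.

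H2AFX is also the only gene of the 10 in whose GENCODE 29 transcripts the histone stem-loop was found, the element that SLBP binds. The 2 sequences below show it in H2AFX and in the replication-dependent histone gene with the highest mean FPKM among those with a match, with the stem-loop in capitals and 5 bases on either side.
H2AFX: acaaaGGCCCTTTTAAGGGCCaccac
HIST2H4A: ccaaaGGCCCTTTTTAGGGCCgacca
In H2AFX the element began 49 bases after the stop codon, at bases 555 to 570 of a transcript of 1614 bases, and the annotated mRNA went on beyond it. H2AFX is known to give both a short mRNA ending at the stem-loop and a long polyadenylated mRNA, and the tables give a single value for the gene. The search found the element in 28 of 64 replication-dependent histone genes that GENCODE 29 holds (43.8%), some of whose annotated transcripts may end before it, and in 34 of 19669 protein-coding genes (0.173%).

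H2AFY, which encodes the macroH2A1 proteins, differed most clearly between the groups relative to its replicate spread. It was at 233.6 and 240.3 scaled FPKM with vehicle, against 176.6 and 190.6 after A7. Both A7 libraries lay below both vehicle libraries, and the replicates of a group differed by no more than 1.08-fold on the scale of scaled FPKM + 1. The means were 236.9 ± 4.8 and 183.6 ± 9.9 (SD, n = 2 each), which is 1.29-fold lower with A7. The log2 difference was -0.37 (SE 0.12, 95% interval -0.66 to -0.07), with an unadjusted limma p of 0.0235 and an adjusted p of 0.806 over all genes, so it did not pass. The difference was negative under all 14 alternatives, between -0.42 and -0.14. Those that changed only the filter, the variance trend or the replicate block, or summed the H3.3 copies, could not change it. In the fits with all 4 libraries the limma adjusted p lay between 0.469 and 0.875. The gene had an estimated 3183 fragments in the vehicle and 3971 in the A7 libraries, and the ratio per depth was 0.768, with an exact 95% counting interval of 0.733 to 0.805. Such intervals cover counting error only, since PCR copies are not independent molecules and the spread between samples is not included. Intervals that excluded an even ratio were also found for SLBP, H2AFZ (0.814 to 0.846), H3F3A (0.743 to 0.883) and H3F3B (1.02 to 1.06). The groups of H3F3A and H3F3B overlapped all the same. The intervals of H2AFX, H2AFV, H2AFJ, H1F0 and H1FX included an even ratio. H2AFY2, the gene of macroH2A2, stood between 0.531 and 0.779 FPKM and was under the minimum.

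H2AFJ encodes a variant close to canonical H2A. It was at 8.56 and 6.88 scaled FPKM with vehicle, against 7.39 and 4.36 after A7. A7 replicate 2 was lowest, whereas A7 replicate 1 lay between the vehicle libraries. On the log2 scale it differed by -0.37 (SE 0.26, limma adjusted p = 0.82), and without A7 replicate 2 it was -0.05. The value rests on an estimated 24 fragments in the vehicle and 31 in the A7 libraries, and the counting interval of the ratio, 0.452 to 1.42, includes 1.

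Within the H2A family the H2A.Z gene H2AFZ made up most of the listed level per length. Its share of the summed scaled FPKM of the family (the 5 H2A variants described here, H2AFY2 and 16 listed replication-dependent H2A genes) was 79.6% and 85.3% with vehicle and 81.0% and 83.7% with A7. The replication-dependent H2A genes held 13.8% and 9.41% with vehicle and 13.4% and 10.6% with A7. Both shares overlapped between the groups. The HIST2H2AA3 and HIST2H2AA4 genes were listed with identical values in each library and were both counted, so the split of reads among these copies is uncertain. Replication-dependent mRNAs end without a poly(A) tail, so these shares may also depend on how RNA was selected for the libraries. This was not tested, and the shares need not be those in the cells.

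H3.3 is encoded by H3F3A and H3F3B, which make the same protein from different mRNAs, and both genes have close copies in the tables. H3F3A was at 116.8 and 178.5 scaled FPKM with vehicle, against 178.7 and 42.5 after A7. A7 replicate 2 was 4.21-fold below A7 replicate 1, which lay level with vehicle replicate 2, and the groups overlapped. The log2 difference of -0.72 (SE 0.63, 95% interval -2.28 to 0.84, limma adjusted p = 0.855) turned to 0.31 without A7 replicate 2. H3F3AP4, annotated as a pseudogene, was at 395.4 and 346.5 with vehicle, against 362.1 and 471.0 after A7. It was highest in A7 replicate 2, where H3F3A was lowest.

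The H3F3A coding sequence and H3F3AP4 were identical in the GENCODE 29 transcripts, at 411 of 411 bases, so reads from this stretch cannot be assigned to either gene by sequence. Of 12 near-identical copies of H3F3A in GENCODE 29 only H3F3AP4 was listed in the tables, so the sums below do not cover the others. The H3F3B coding sequence differed from that of H3F3A at 88 of 411 bases. H3F3C, a copy of H3F3B that lacks introns, matched H3F3B at 96.2% of 1064 aligned transcript bases. The 4 sequences are shown over coding bases 151 to 240 of H3F3A, counted from the start codon, because they show which genes can share reads. Capitals mark bases that differ from H3F3A.
H3F3A: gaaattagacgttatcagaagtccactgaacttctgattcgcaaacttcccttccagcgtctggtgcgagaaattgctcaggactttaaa
H3F3AP4: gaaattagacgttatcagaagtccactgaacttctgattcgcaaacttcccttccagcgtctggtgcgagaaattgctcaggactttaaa
H3F3B: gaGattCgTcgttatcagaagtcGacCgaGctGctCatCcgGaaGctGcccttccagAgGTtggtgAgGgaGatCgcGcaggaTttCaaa
H3F3C: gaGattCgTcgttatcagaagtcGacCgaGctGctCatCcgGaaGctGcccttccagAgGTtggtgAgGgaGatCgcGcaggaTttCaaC
In these 90 bases H3F3AP4 differed from H3F3A at 0 bases, H3F3B at 22 and H3F3C at 23.

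Summed with H3F3AP4, the level of H3F3A was nearly even, at 512.2 and 525.0 scaled FPKM with vehicle, against 540.7 and 513.5 after A7. The highest of these sums was 1.06-fold the lowest, against 4.21-fold for H3F3A alone. The share of H3F3A in the sum was 22.8% and 34.0% with vehicle and 33.04% and 8.28% with A7. With the copies summed, an alternative chosen after the values were seen, the log2 difference of H3F3A was 0.02 (limma adjusted p = 0.978). Weighted by GENCODE 29 transcript length (1308 bases for H3F3A and 411 for H3F3AP4) the sums were less even and spanned 1.54-fold. How the authors' counting divided reads between these genes is not given in the sources used here and was not tested.

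H3F3B overlapped between the groups on this scale. It was at 1069 and 1266 scaled FPKM with vehicle, against 1127 and 1333 after A7. Both libraries numbered 2 were higher than both numbered 1, and the log2 difference was 0.08 (SE 0.15, 95% interval -0.29 to 0.44, limma adjusted p = 0.942), a direction that turned to -0.05 without vehicle replicate 1 and without A7 replicate 2. After quantile normalization H3F3B was higher with A7 without overlap, as 18.2% of all genes were. The log2 difference was then 0.29, with an unadjusted limma p of 0.0334 and an adjusted p of 0.875 over all genes, and with TPM the difference was 0.30 (limma adjusted p = 0.535). H3F3C was at 2377 and 2784 with vehicle, against 2328 and 2893 after A7, and its ratio to H3F3B was 2.22 and 2.2 with vehicle and 2.07 and 2.17 with A7. Both genes were higher in the libraries numbered 2, and the split of reads between them is uncertain. UNK, on the opposite strand, overlaps H3F3B in GENCODE 29 and was listed at 14.1 to 20.3 FPKM, and the labels' protocols name no step that marks the strand.

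**Figure D3:**
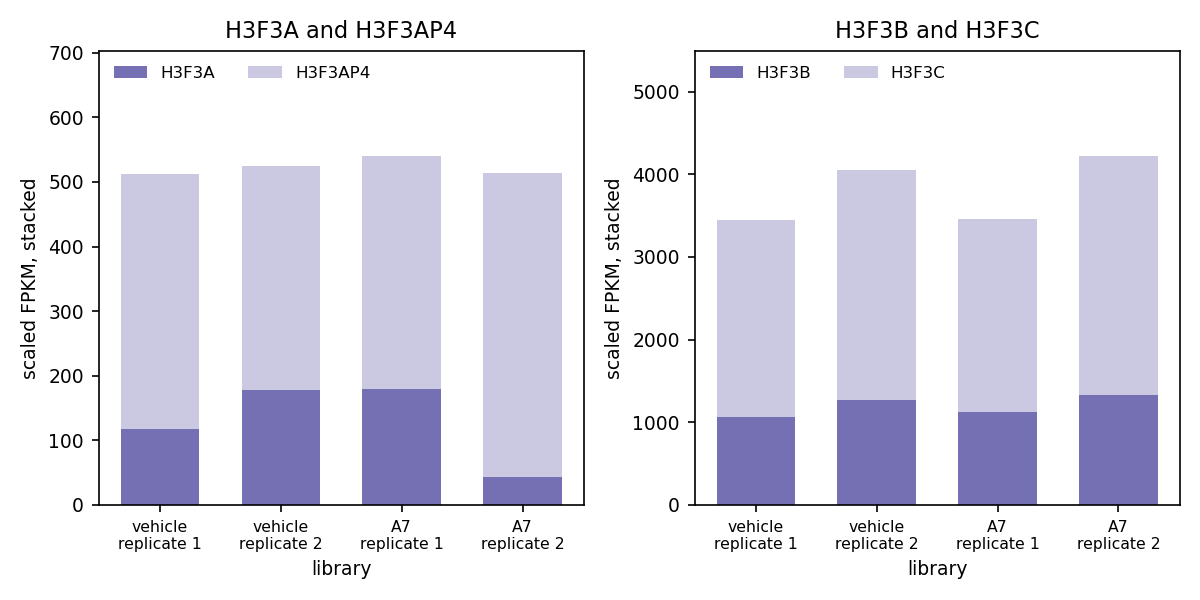
Stacked scaled FPKM per library of H3F3A with H3F3AP4 (left) and of H3F3B with H3F3C (right), from 0 on linear axes. On the left the stacks reach 512.2 to 540.7 while the H3F3A part ranges from 42.5 to 178.7, and on the right both parts are higher in the libraries numbered 2.

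The linker histone variants also overlapped between the groups on this scale. H1F0, whose product H1.0 accumulates in resting and differentiated cells, was at 11.1 and 10.6 scaled FPKM with vehicle, against 14.7 and 10.2 after A7. Only A7 replicate 1 was high, and the log2 difference of 0.16 (SE 0.21, limma adjusted p = 0.898) turned to -0.08 without it. H1FX, which encodes H1.10, was at 2.64 and 0.667 with vehicle, against 1.07 and 2.17 after A7. Its replicates lay apart in both groups and the groups overlapped, with a log2 difference of 0.06 (SE 0.43, limma adjusted p = 0.987) that turned to -0.02 after quantile normalization, to -0.51 without vehicle replicate 2 and to -0.25 without A7 replicate 2. These values stand for an estimated 10, 2, 7 and 11 fragments, and the counting interval of the ratio, 0.421 to 2.1, includes 1. H1FX-AS1, on the opposite strand, was listed at 0 to 0.822 FPKM.

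SLBP was lower in both A7 libraries. It was at 11.1 and 7.33 scaled FPKM with vehicle, against 6.94 and 5.94 after A7. Vehicle replicate 1 was highest by a clear margin, vehicle replicate 2 lay just above A7 replicate 1, and the groups did not overlap. The means were 9.20 ± 2.64 and 6.44 ± 0.71 (SD, n = 2 each), which is 1.43-fold lower after A7, and the log2 difference was -0.43 (SE 0.23, 95% interval -0.99 to 0.12, limma adjusted p = 0.806). It was negative under all 14 alternatives, from -0.70 to -0.17, and the smallest size came from leaving out vehicle replicate 1. The alternatives of filter, variance trend, replicate block and summed H3.3 copies could not change the difference. With all 4 libraries the limma adjusted p lay between 0.516 and 0.875. SLBP had an estimated 55 and 33 fragments in the vehicle libraries against 60 and 40 after A7, a ratio per depth of 0.699 with an exact 95% counting interval of 0.52 to 0.942, which leaves out the spread between samples. The transcripts of SLBP had no near-identical copy in GENCODE 29 (at least 90% identity over at least 50% of either transcript).

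The genes with the most similar course to SLBP over the 4 libraries, by the distance between centred log2 values and among the 3280 genes that averaged at least 10 FPKM, were IDH3B (distance 0.103), RGS10 (0.131) and XBP1 (0.137). XBP1 was at 254.5 and 186.6 with vehicle, against 180.4 and 166.7 after A7. Closest to H2AFZ were CHMP4A (0.0382), PIGC (0.0469) and ATP5F1 (0.0511), the last at 246.9 and 340.8 with vehicle, against 241.5 and 249.8 after A7. With 4 libraries many genes share such a course, so these are descriptions only.

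Partners of SLBP in the processing, translation and decay of histone mRNAs went in both directions. Of 24 listed genes 18 were tested, 10 with a higher and 8 with a lower mean log2 value with A7, and none passed the limma test over all genes (1 at an unadjusted p under 0.05). The median log2 difference was 0.01. CSTF2, a subunit of the cleavage stimulation factor, was at 5.20 and 3.84 scaled FPKM with vehicle, against 2.56 and 2.75 after A7 (log2 difference -0.58, SE 0.21, limma adjusted p = 0.806). The 5′ exonuclease gene XRN1 was listed at 1.49 and 1.16 against 1.98 and 2.19, and the decapping enzyme gene DCP2 at 5.02 and 6.17 against 6.71 and 8.21. LSM10, of the U7 particle that acts with SLBP at the 3′ end, was at 19.3 and 17.1 with vehicle, against 15.9 and 14.2 after A7, and was added to the named genes for this role after its values were seen. In 4 of the 18 tested genes the groups did not overlap on the higher side and in 6 on the lower side, against 18.3% and 18.6% of all genes, and the 4 named here are among them, 3 of them named for their small p.

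Of 6 genes linked to the cell cycle control of SLBP 5 were tested, 3 with higher and 2 with lower means, a median of 0.33 and none past the limma threshold (0 at an unadjusted p under 0.05). SLBP protein falls at the end of S phase after phosphorylation by cyclin A with CDK1. CCNA2, the cyclin A gene, was at 6.90 and 6.08 scaled FPKM with vehicle, against 8.48 and 9.07 after A7 (log2 difference 0.39, SE 0.17, limma adjusted p = 0.806). DCAF11, a substrate receptor of a ubiquitin ligase, was listed at 5.50 and 3.87 against 6.98 and 6.15. In the list the groups did not overlap in 2 of the 5 tested genes on the higher side and 2 on the lower side. Of all genes tested 18.3% and 18.6% did not. CCNA2 and DCAF11, named for their small p, were on the higher side.

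Histone chaperones had no common direction. Of 23 listed H3.3 and general chaperones 19 were tested, 9 with higher and 10 with lower means and a median of -0.05, and none passed (0 at an unadjusted p under 0.05). DAXX and ATRX, which together place H3.3 at telomeres and other repeats, lay on opposite sides. DAXX was at 60.0 and 64.9 scaled FPKM with vehicle, against 46.7 and 53.0 after A7 (log2 difference -0.32 with SE 0.14, adjusted p = 0.806 in limma), and ATRX at 4.79 and 4.29 against 6.19 and 5.90 (0.35, SE 0.17, the same adjusted p). NPM1, an abundant nucleolar chaperone, was listed at 5638 and 7975 against 4774 and 5525. HIRA, the chaperone that places H3.3 in active genes, stood between 0.254 and 0.522 FPKM and was not tested.

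Of 16 genes that place or remove H2A.Z or H2A.X 11 were tested, 6 with higher and 5 with lower means, a median of 0.03 and none past the threshold of limma (0 at an unadjusted p under 0.05). ACTL6A, an actin-related subunit, was at 86.8 and 106.9 scaled FPKM with vehicle, against 77.5 and 87.9 after A7, and the helicase gene RUVBL2 at 9.85 and 11.5 against 12.2 and 5.34. YEATS4, a reader subunit, was listed at 7.04 and 7.75 against 9.70 and 7.96. SRCAP and EP400, the motor subunits that insert H2A.Z, were under the minimum at 0.304 to 0.702 FPKM. Of 16 other listed variant histone genes 2 were tested, H3F3C and CENPA. CENPA, the centromeric H3 variant, was at 3.70 and 2.62 with vehicle, against 5.11 and 4.00 after A7, without overlap (log2 difference 0.42, SE 0.22, limma adjusted p = 0.806).

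The replication-dependent histone genes were picked by symbol, as those of the HIST clusters in no other list. Of 67 listed symbols, 64 were found as protein-coding in GENCODE 29, so not each need give an mRNA that SLBP serves. Whether HIST2H2BA, named below, is among the 64 is not reported here. The 58 tested genes lay on both sides of 0. Their log2 differences ranged from -3.31 to 1.04, with quartiles of -1.13 and 0.30 and a median of -0.11, and those of the 10 from -0.72 to 0.16. Of these histone genes 35 had lower and 23 higher means, where 50.3% of all genes were lower, and 10 had an unadjusted p under 0.05, where 5.76% of all genes did. In the limma test over all genes 1 passed, HIST2H2BA, at 7.89 and 10.1 scaled FPKM with vehicle and listed at 0 with A7 (limma adjusted p = 0.0365). No gene passed on the lower side with a pseudocount of 0.1 or 0.01, with no filter, with the replicate block or without A7 replicate 1. HIST1H4I was listed at 4.13 and 4.26 with vehicle and at 0 with A7, and HIST1H2AJ at 46.3 and 40.8 against 10.8 and 13.3. The summed level of all 67 listed symbols was 13370 and 12106 with vehicle and 12720 and 10951 with A7, and the groups overlapped. Without HIST1H4C it was 2965 and 2732 with vehicle and 2751 and 2604 with A7, also with overlap. HIST2H4A and HIST2H4B had identical values in each library and were both counted. The most abundant, HIST1H4C, was at 10404 and 9374 with vehicle, against 9969 and 8347 after A7. Many of these genes have near-identical copies, so single values are uncertain.

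**Figure D4:**
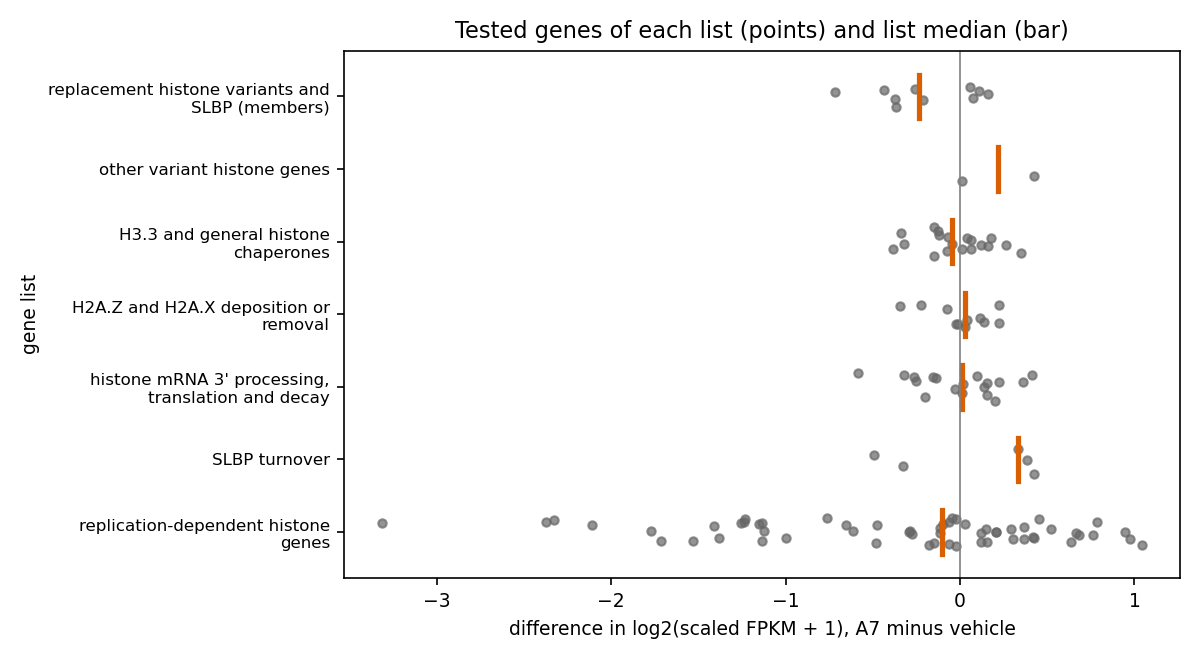
Difference in log2(scaled FPKM + 1), A7 minus vehicle, for the tested genes of each list (points, spread vertically for legibility) with the list median (orange bar). The 10 genes described here lie between -0.72 and 0.16 with a median of -0.23, and the replication-dependent histone genes between -3.31 and 1.04 with a median of -0.11.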

How the data were processed

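The authors deposited 1 table of gene symbols and FPKM per library, per the file headers. The submitters' processing notes name build GRCh37, Cufflinks 2.2.1, CASAVA 1.8.2 and TopHat without saying what each did. The annotation, and what was done with reads of several possible origins, are not given in the sources used. Of 23619 lines, 14 carried a number as symbol and were left out. Libraries were divided by their median ratio to the geometric mean, and limma 3.58.1 (R 4.3.3) was applied to the 8952 genes that averaged at least 1 FPKM, on log2(scaled FPKM + 1), two-sided, with a variance trend and Benjamini-Hochberg adjustment (threshold 0.05). This scale understates changes of low genes. The test was checked on simulated data with independent normal noise, without reads shared between copies or a depth difference between the groups. The values of that check are not reported here. An exact permutation test of 2 against 2 cannot give a p below 0.333 and was not used. Depth was estimated from the steps of low values with GENCODE 29 transcript lengths, and copies were sought with blastn 2.17.0. GENCODE 29 and the RefSeq promoters are on GRCh38, another build than that of the tables, and served for sequences and names only. Text names the 10 genes, up to 3 genes with the smallest p per list, and the 3 genes closest to SLBP and H2AFZ; the values of some listed genes are not reported here. Genes named for other reasons (copies, overlapping genes, genes under the minimum, LSM10, HIST1H4C and markers) were chosen after their values were seen. The genes and lists were chosen with earlier results of these data known.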

Additional observations from a re-analysis of the deposited data

How the results depend on the processing

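H2AFZ, H2AFY, H2AFJ and SLBP stayed lower with A7 under all 14 alternatives tried for each. The alternatives of filter, variance trend, replicate block and summed H3.3 copies could not change the log2 difference of these genes. No alternative with all 4 libraries brought any of the 10 genes past the limma threshold. With FPKM rescaled to TPM the median log2 difference of the 10 was -0.014, H2AFV stood at 0.004, and 1 gene of the 10 was lower without overlap and 2 higher, against 5.36% and 40.7% of all genes. Quantile normalization put H1FX at -0.018, and summing H3F3A with H3F3AP4 put H3F3A at 0.023. With 1 library left out H2AFX ranged from -0.364 to 0.578, H3F3A from -1.742 to 0.305, H3F3B from -0.046 to 0.197, H1F0 from -0.081 to 0.402 and H1FX from -0.505 to 0.623, while 3 to 7 of the 10 genes were lower and 1 to 3 higher without overlap, with fewer libraries to overlap. The shares of all genes were then 32.5% to 36.9% lower and 31.7% to 36.6% higher. Over all genes, 1 higher and 1 lower passed. There were 0 higher with no filter, without the variance trend and with the replicate block, and between 1 and 10 with 1 library left out. There were 2 lower with TPM or quantile normalization, 0 with a pseudocount of 0.1 or 0.01, with no filter and with the replicate block, 3 at a mean FPKM of 5 or more, and between 0 and 7 with 1 library left out. The causes were not tested. The replicate numbers were not shown to pair the samples, as the differences between replicates correlated at 0.0906 between the groups. In the fit with the replicate block SLBP had an unadjusted limma p of 0.048 and H2AFY of 0.00952, with adjusted p of 0.516 and 0.469. With TPM the unadjusted limma p was 0.388 for SLBP and 0.284 for H2AFY. After quantile normalization it was 0.0983 for SLBP and 0.0853 for H2AFY. H1FX has no value at a mean FPKM of 5 or more, so no median of the 10 was formed there. Depth limits H1FX, H2AFJ, H2AFX and SLBP most.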

Other observations

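ASF1B, a chaperone of H3 and H4 that is made in proliferating cells, shared the course of H2AFX over the libraries, a likeness picked after its values were seen. It was at 6.27 and 3.17 scaled FPKM with vehicle, against 6.07 and 3.34 after A7, high in both libraries numbered 1 and low in both numbered 2, as H2AFX was.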
